A study of Mus musculus with 4 samples.

Results

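The 30 genes described here are markers and signalling genes of T cells, B cells and natural killer (NK) cells, the lymphocytes, read from arrays of whole mouse hearts. They were chosen by name, from cell biology and not by a rule on their values, though earlier results of these data were known. Their probes are those whose transcript accession belongs to a member gene, with the brightest probe used for a gene that has several. All 30 had a probe among the 21658 genes that could be named, with 38 probes in all, and 23 of the 30 had a single probe. The arrays carried total RNA from hearts of male C57BL/6J mice after sham surgery or transverse aortic constriction (TAC), a banding of the aortic arch that loads the left ventricle with pressure. Hearts were taken 2 or 8 weeks after surgery. By the labels, the mice were 10 weeks old at the earlier time and 16 weeks old at the later one, whereas the methods of the study place surgery at an age of 12 weeks. Each of the 4 conditions (sham and TAC at each time) was a pool of 500 ng of RNA from each of 4 to 6 mice on 1 array, so the spread between mice could not be measured, no test was possible, and each fold change is the ratio of 2 pools.

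T cells recognise antigen through a receptor that signals by way of the CD3 chains and the kinases Lck and Zap70, with CD4 or CD8 as coreceptor. B cells signal through the paired chains CD79a and CD79b, and NK cells and cytotoxic T cells kill with perforin and granzymes. In a healthy heart these cells are few among cardiomyocytes, fibroblasts, endothelial cells and macrophages, and T cells are known to enter the heart under pressure overload. In whole tissue, fewer cells of a type and less RNA per cell cannot be told apart.

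Promoter sequences are shown for the 3 CD3 chains, which share a locus but differed on the arrays, and for the chemokine receptor Cxcr3. Cxcr3 was taken because it and Cd3d were the members above background on both TAC arrays and on neither sham array. How many of all genes showed this pattern was not counted. Each window is the 250 bases before the gene start in RefSeq annotation of GRCm38.p6, written 5′ to 3′ on the strand of the gene. Capitals mark an E-box (CAGGTG, or CACCTG on the other strand) or a RUNX motif (TGTGGT, or ACCACA on the other strand).
Cd3d, chr9:44981536-44981785, plus strand: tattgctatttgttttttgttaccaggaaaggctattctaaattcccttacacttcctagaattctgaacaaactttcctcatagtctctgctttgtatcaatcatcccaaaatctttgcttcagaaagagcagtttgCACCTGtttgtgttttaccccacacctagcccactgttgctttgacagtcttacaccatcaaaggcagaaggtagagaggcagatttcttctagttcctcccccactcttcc
Cd3g, chr9:44980432-44980681, minus strand: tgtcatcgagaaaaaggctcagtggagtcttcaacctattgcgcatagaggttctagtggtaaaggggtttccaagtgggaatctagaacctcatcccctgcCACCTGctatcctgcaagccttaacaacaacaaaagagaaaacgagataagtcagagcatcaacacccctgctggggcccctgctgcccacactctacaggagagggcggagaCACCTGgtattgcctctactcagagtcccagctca
Cd3e, chr9:45009612-45009861, minus strand: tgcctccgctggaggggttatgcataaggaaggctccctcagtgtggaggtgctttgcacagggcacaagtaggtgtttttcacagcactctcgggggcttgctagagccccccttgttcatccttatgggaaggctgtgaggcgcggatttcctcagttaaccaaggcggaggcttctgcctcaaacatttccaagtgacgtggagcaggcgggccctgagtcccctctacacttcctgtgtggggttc
Cxcr3, chrX:101734148-101734397, minus strand: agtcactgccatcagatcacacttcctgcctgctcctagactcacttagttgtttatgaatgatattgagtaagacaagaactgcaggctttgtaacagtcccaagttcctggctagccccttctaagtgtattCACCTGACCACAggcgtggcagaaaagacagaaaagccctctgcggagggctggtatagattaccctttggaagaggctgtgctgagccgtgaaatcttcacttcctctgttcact
The starts of Cd3d and Cd3g lay 1355 bases apart and faced away from each other, and the start of Cd3e lay 27825 bases from that of Cd3d. The window of Cd3d held 1 E-box, that of Cd3g held 2 and that of Cd3e none. In the Cxcr3 window 1 E-box and 1 RUNX motif adjoined each other. The promoter table held 24 windows for 19 of the 30 members, and Cd2 and Ms4a1 were not among them. An E-box was found in 12 of the 24 windows (50%), against 17.2% of all 32851 promoter windows of this length, and a RUNX motif in 10 (41.7%), against 14%. The other motifs searched on both strands were the ETS core GGAA, in 20 windows against 93.4% of all promoters, GGAAAA of NFAT sites, which overlaps the ETS core, in 5 against 20.4%, TATAAA in 1 against 12.4%, and a 10-letter NF-kB motif in 0 against 0.0974%. These motifs were picked with the counts known, several windows belong to the same gene, and a match describes the letters of the window and not binding.

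Signals are given on a linear scale on which the 75th percentile of each array is 100, called normalised signal here. Before this scaling the percentile lay between 206 and 248 across the arrays, and no spot was saturated. A probe was taken as measured on an array where the scanner software marked it well above background. In normalised signal, the lowest so marked was 5.99 in sham and 4.84 in TAC hearts at 2 weeks, and 5.40 and 4.69 at 8 weeks. It was thus lower on the TAC array at each time. The number of arrays limits the precision, and the spread known is that between spots of the same probe on an array. It was estimated from 399 probes printed in 10 spots. For a pair of spots, the SD of their log2 ratio was 0.61 below a normalised signal of 5, 0.41 between 5 and 20, 0.17 between 20 and 100 and 0.09 above 100. A member was called changed when it was measured on the brighter array and its fold change was over 2. Where the dimmer array was not well above background, its signal was replaced by the higher of its own value and the lowest signal marked well above background on that array. As a check of the sample labels, Myh7, Nppa, Nppb and Acta1, genes of the hypertrophic heart, all rose over 2-fold after TAC at both times.

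Of the 30 genes, 15 were well above background on all 4 arrays, 5 on some of them and 10 on none. Among all named genes, 65.8% were measured on all 4 arrays and 27% on none. Single arrays measured 15 members in sham and 19 in TAC hearts at 2 weeks, and 17 and 20 at 8 weeks. Of all named genes they measured 67.3% in sham and 70.2% in TAC hearts at 2 weeks, and 68.9% and 69.6% at 8 weeks. The 10 genes measured on no array were Cd3g, the coreceptor gene Cd8a, the inhibitory receptor gene Ctla4, the B cell kinase gene Blk, the granzyme gene Gzmb, the NK receptor genes Klrd1, Klrk1 and Ncr1, and the cytokine receptor genes Il2rb and Il7r. Their normalised signals ran from 1.09 to 5.53. None was marked well above background, so differences between arrays were not read as changes in the calls reported. The list therefore lacked a measured value for the NK-defining receptors and for the CD8 alpha chain, and it is described below by gene and not as a set of cells.

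**Figure D1:**
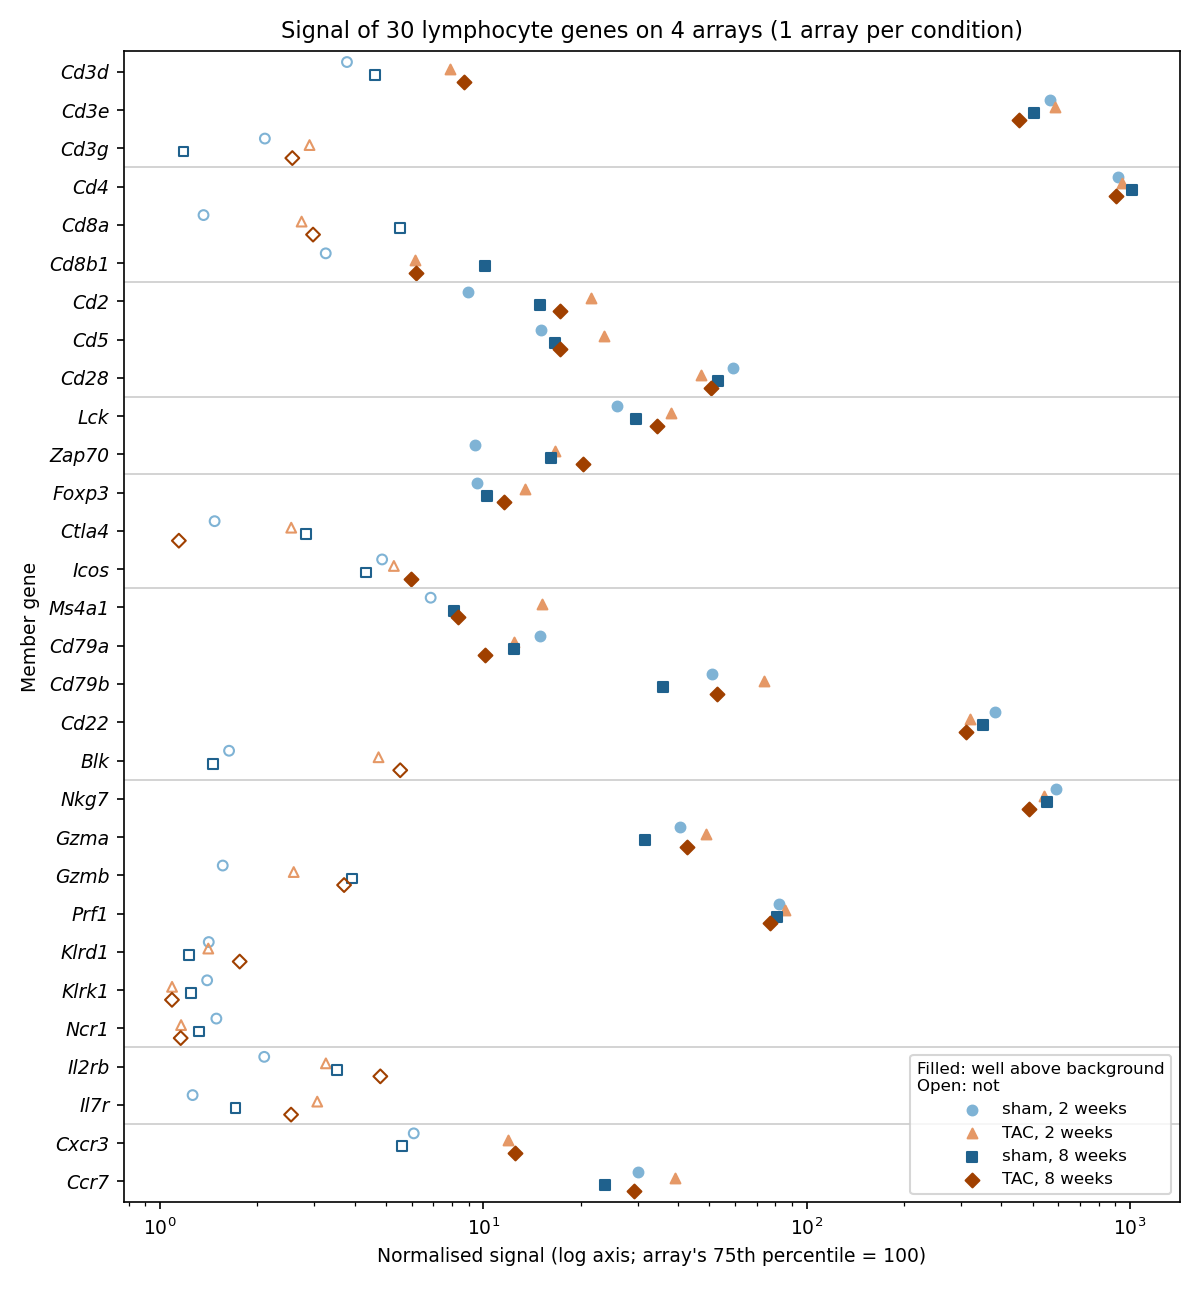
Normalised signal (log axis, the 75th percentile of each array set to 100) of the 30 genes on the 4 arrays, 1 point per array, with filled points well above background and open points not. Cd3d and Cxcr3 have filled points for both TAC arrays and open points for both sham arrays, and Cd3e, Cd4, Cd22 and Nkg7 lie above 300 on every array.

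The CD3 chains carry the signal of the T cell receptor into the cell, and their probes did not move together. Cd3d had a normalised signal of 3.78 in sham and 7.87 in TAC hearts at 2 weeks, and of 4.62 and 8.68 at 8 weeks. Both TAC arrays lay above both sham arrays, and only the TAC arrays were well above background. The lowest signal so marked was itself lower on the TAC arrays, and the share of all genes with this pattern was not counted. Against the lowest signal marked on the sham arrays, the excess of Cd3d after TAC was at least 1.31-fold at 2 weeks and 1.61-fold at 8 weeks, so it was not called. The plain ratios of its signals were 2.08-fold and 1.88-fold, and by plain ratio Cd3d would be called at 2 weeks. Cd3e, read by a single bright probe, gave 564 in sham and 587 in TAC hearts at 2 weeks, and 505 and 453 at 8 weeks. Its log2 change was 0.06 at 2 weeks and -0.16 at 8 weeks, and the sham arrays differed by -0.16 (8 over 2 weeks), so the TAC changes were no larger than the difference between the sham pools. Cd3g was not above background, with signals between 1.18 and 2.90. What the bright probe of Cd3e binds besides its named transcript was not tested.

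Of the coreceptors, which bind the MHC molecule beside the antigen receptor, Cd4 gave 916 in sham and 944 in TAC hearts at 2 weeks, and 1012 and 902 at 8 weeks. The log2 changes of Cd4 after TAC were 0.04 and -0.17, the second larger than the SD between spots of 0.09. The sham arrays differed by 0.14. Cd8b1, the CD8 beta chain, was highest in a control, the sham hearts at 8 weeks. It gave 3.25 in sham hearts at 2 weeks, where it was not above background, and 6.14 in TAC hearts. At 8 weeks it gave 10.1 in sham and 6.17 in TAC hearts, a log2 change of -0.72. Between the sham arrays its excess at 8 weeks was at least 1.69-fold, and no change of Cd8b1 was called. The plain ratio of the sham signals was 3.12-fold, against a value that was not above background.

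Among the surface genes of T cells, Cd2, an adhesion receptor for target and presenting cells, showed the largest measured change after TAC at 2 weeks. Cd2 gave 8.93 in sham and 21.5 in TAC hearts at 2 weeks, and 15.0 and 17.2 at 8 weeks. It rose 2.41-fold at 2 weeks (log2 change 1.27, against an SD between spots of 0.41). At 8 weeks its log2 change was 0.20, less than the 0.74 by which the sham arrays differed. Cd5, which dampens T cell receptor signals, followed the same order in time. Its signal was 15.1 in sham and 23.6 in TAC hearts at 2 weeks, and 16.7 and 17.2 at 8 weeks, with log2 changes of 0.64 and 0.05. Cd28, the costimulatory receptor, went the other way, from 59.0 in sham to 47.2 in TAC hearts at 2 weeks and from 53.1 to 50.7 at 8 weeks. Its log2 changes were -0.32 and -0.07, the first larger than the SD between spots of 0.17.

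Both kinases next to the T cell receptor were higher after TAC at each time, except for Zap70 at 8 weeks with normexp background correction (log2 change -0.03) or with its dimmer probe (-0.11), and neither passed 2-fold. Lck, which phosphorylates the CD3 chains, gave 25.8 in sham and 38.1 in TAC hearts at 2 weeks, and 29.7 and 34.5 at 8 weeks. Its log2 change was 0.56 at 2 weeks and 0.22 at 8 weeks, against an SD between spots of 0.17, and the sham arrays differed by 0.20. Zap70, which docks on the phosphorylated chains, gave 9.44 and 16.6 at 2 weeks, and 16.2 and 20.3 at 8 weeks. Its log2 changes were 0.81 and 0.33, whereas the sham arrays differed by 0.78, and the sham array at 8 weeks reached nearly the level of the TAC array at 2 weeks.

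Foxp3, the transcription factor that defines regulatory T cells, was low and higher after TAC by small amounts. It gave 9.54 in sham and 13.4 in TAC hearts at 2 weeks, and 10.2 and 11.6 at 8 weeks. The log2 changes were 0.49 and 0.18, against an SD between spots of 0.41 at this signal. Icos, a costimulatory receptor of activated T cells, lay between 4.33 and 5.99 and was well above background only on the TAC array at 8 weeks.

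The B cell genes moved in different directions. Ms4a1, which encodes CD20, gave 6.87 in sham hearts at 2 weeks, not above background, and 15.1 in TAC hearts, so it rose at least 2.20-fold. At 8 weeks it gave 8.12 in sham and 8.36 in TAC hearts, a log2 change of 0.04. The rise of Ms4a1 was seen at 2 weeks alone, as for Cd2, and the difference between the times was not tested. Cd79b gave 50.8 in sham and 73.8 in TAC hearts at 2 weeks, and 35.9 and 52.9 at 8 weeks. Its log2 changes, 0.54 and 0.56, were alike at both times and exceeded the SD between spots of 0.17, while the sham arrays differed by -0.50. Its partner chain Cd79a was lower after TAC, at 14.9 and 12.4 at 2 weeks and 12.4 and 10.1 at 8 weeks, with log2 changes of -0.26 and -0.30 that did not exceed the SD between spots of 0.41. The 2 chains of the receptor complex thus had log2 changes of opposite sign at both times. Cd22, an inhibitory receptor of B cells, gave 381 in sham and 321 in TAC hearts at 2 weeks, and 350.1 and 310.0 at 8 weeks. Its log2 changes of -0.25 and -0.18 exceeded the SD between spots of 0.09, and the sham arrays differed by -0.12.

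Of the cytotoxic genes, 3 of 7 were measured. Gzma, which encodes granzyme A, gave 40.5 in sham and 48.7 in TAC hearts at 2 weeks, and 31.7 and 42.6 at 8 weeks. Its log2 changes of 0.27 and 0.43 exceeded the SD between spots of 0.17, and the sham arrays differed by -0.36. Prf1, which encodes the pore-forming perforin, stayed between 76.8 and 85.5 on the 4 arrays, with log2 changes of 0.06 and -0.08. Nkg7, a protein of cytotoxic granules, gave 590.4 in sham and 541 in TAC hearts at 2 weeks, and 553 and 487 at 8 weeks. Its log2 changes of -0.13 and -0.19 exceeded the SD between spots of 0.09, and the sham arrays differed by -0.09. Granzyme A alone of the 3 was thus higher after TAC at both times.

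Both chemokine receptors were higher after TAC at each time. Cxcr3, which guides activated T cells and NK cells towards Cxcl9 and Cxcl10, gave 6.09 in sham and 12 in TAC hearts at 2 weeks, and 5.60 and 12.5 at 8 weeks. The sham arrays were alike and not above background, and the TAC arrays were alike and above both of them. The excess of Cxcr3 after TAC was at least 1.96-fold at 2 weeks, just short of the call, and it rose at least 2.23-fold at 8 weeks. Ccr7, which guides naive T cells and dendritic cells to lymph nodes, gave 30.1 and 39.2 at 2 weeks, and 23.7 and 29.1 at 8 weeks. Its log2 changes were 0.38 and 0.30, and the sham arrays differed by -0.34.

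In all, 2 of the 30 members, Cd2 and Ms4a1, were called higher after TAC at 2 weeks, where 0.877% of all 21658 named genes were called higher. At 8 weeks 1 member, Cxcr3, was called higher, with 1.77% of all genes called. None of the 30 was called lower at 2 weeks (0.711% of all genes) or at 8 weeks (1.06%). Between the sham arrays no member was called higher (0.577%) or lower (0.54%) at 8 weeks. At 2 weeks, just inside and just outside the 2-fold limit lay Ms4a1 at 2.20-fold and Cxcr3 at 1.96-fold, both as lower bounds. These bounds equal the plain ratios, because the sham signals exceeded the lowest signal marked well above background. The same holds for Cxcr3 at 8 weeks. Each probe had 1 spot per array. The log2 changes were 1.14 for Ms4a1 and 0.97 and 1.16 for Cxcr3, against an SD between spots of 0.41.

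Over the 15 members measured on all arrays, the median log2 change after TAC was 0.27 at 2 weeks and 0.05 at 8 weeks, beside -0.01 at each time for the 14243 genes so measured. The change was above 0 for 11 of the 15 at 2 weeks, against 48.9% of those genes, for 8 at 8 weeks, against 48.3%, and for 8 at both times, against 33.6%. The log2 change was smaller at 8 than at 2 weeks for 11 of the 15, a count not made for all genes. For 7 of the 15, Cd2, Cd5, Lck, Zap70, Foxp3, Cd79b and Gzma, both TAC arrays lay above both sham arrays, as for 24% of the genes measured on all arrays. For 4, Cd28, Cd79a, Cd22 and Nkg7, both TAC arrays lay below both sham arrays, as for 25.6% of those genes. The difference between the sham arrays was at least as large as the TAC change for 3 of the 15 at 2 weeks and for 6 at 8 weeks, also not counted for all genes. Its median was -0.09 over the 15 members and 0.03 over all measured genes, and it was above 0 for 6 of the 15, against 56.5% of those genes. It shares its arrays with the TAC comparisons. These counts and medians describe the list, beside all genes where a share is given, and were not tested.

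**Figure D2:**
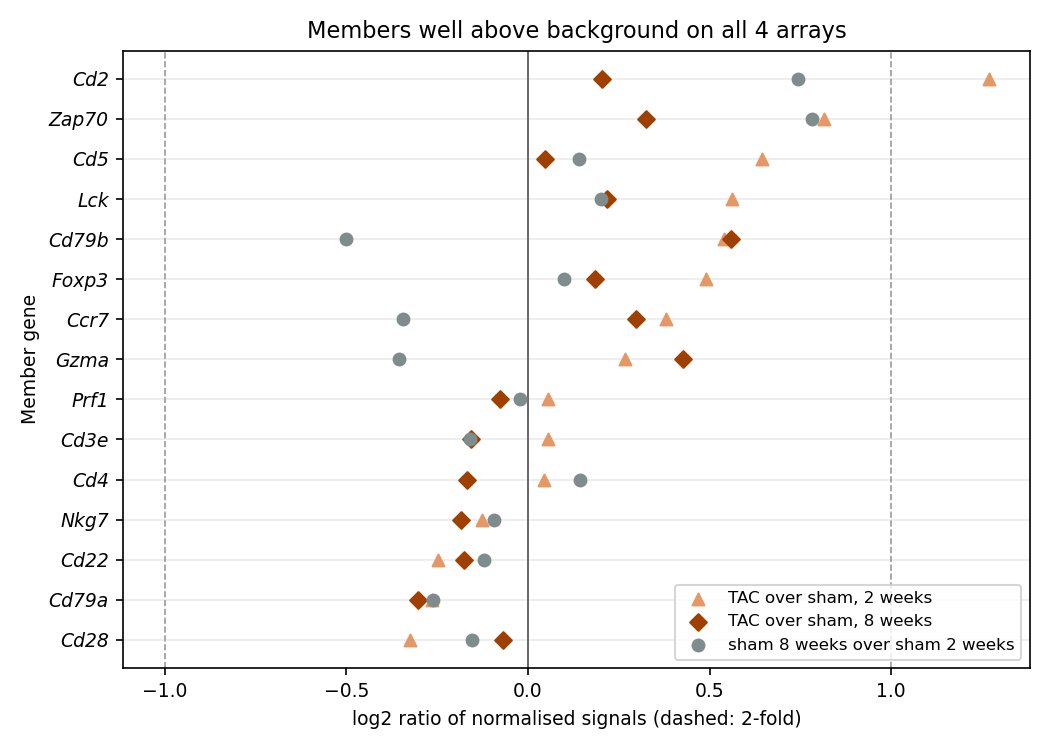
Log2 ratio of normalised signals for the 15 members measured on all 4 arrays, with triangles for TAC over sham at 2 weeks, diamonds for TAC over sham at 8 weeks and circles for sham at 8 weeks over sham at 2 weeks; dashed lines mark 2-fold. Cd2 at 2 weeks (1.27) is the point beyond a dashed line, and for Zap70 the circle (0.78) lies next to the triangle (0.81).

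Where a gene had more than 1 probe, its probes did not always give the same picture, and levels of different probes are not on a common scale. The bright probe of Cd4 (A_55_P2013655) read 902 to 1012, whereas its 10-spot probe (A_52_P383089) read 8.88 in sham and 11.2 in TAC hearts at 2 weeks, and 10.2 and 10.8 at 8 weeks. That dim probe was also measured on every array, with log2 changes of 0.34 and 0.08. For Cd22 the other probe (A_55_P2163795) gave 7.11 in sham hearts at 2 weeks and 3.60 to 3.90 on the other arrays, and was well above background on the first alone. For Nkg7 the other probe (A_51_P499195) was well above background only on the TAC array at 8 weeks, at 6.45, and read 3.33 to 3.77 elsewhere. The bright signals of Cd4, Cd22 and Nkg7 thus came from 1 of the 2 probes of each gene, and what the bright probes bind besides the named transcript was not tested. The same limit holds for the bright probe of Cd3e, which has no other probe beside it. For Cd2 the 10-spot probe (A_51_P126067) read 2.26 to 3.91 and was not above background, with log2 changes of 0.56 and 0.23, so the rise at 2 weeks rests on the brighter probe. Both probes of Zap70 were measured on every array, the second giving 10.0 and 13.1 at 2 weeks and 14.9 and 13.8 at 8 weeks. Its log2 changes were 0.38 and -0.11, against 0.81 and 0.33 for the probe used, so the probes differed in sign at 8 weeks.

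**Figure D3:**
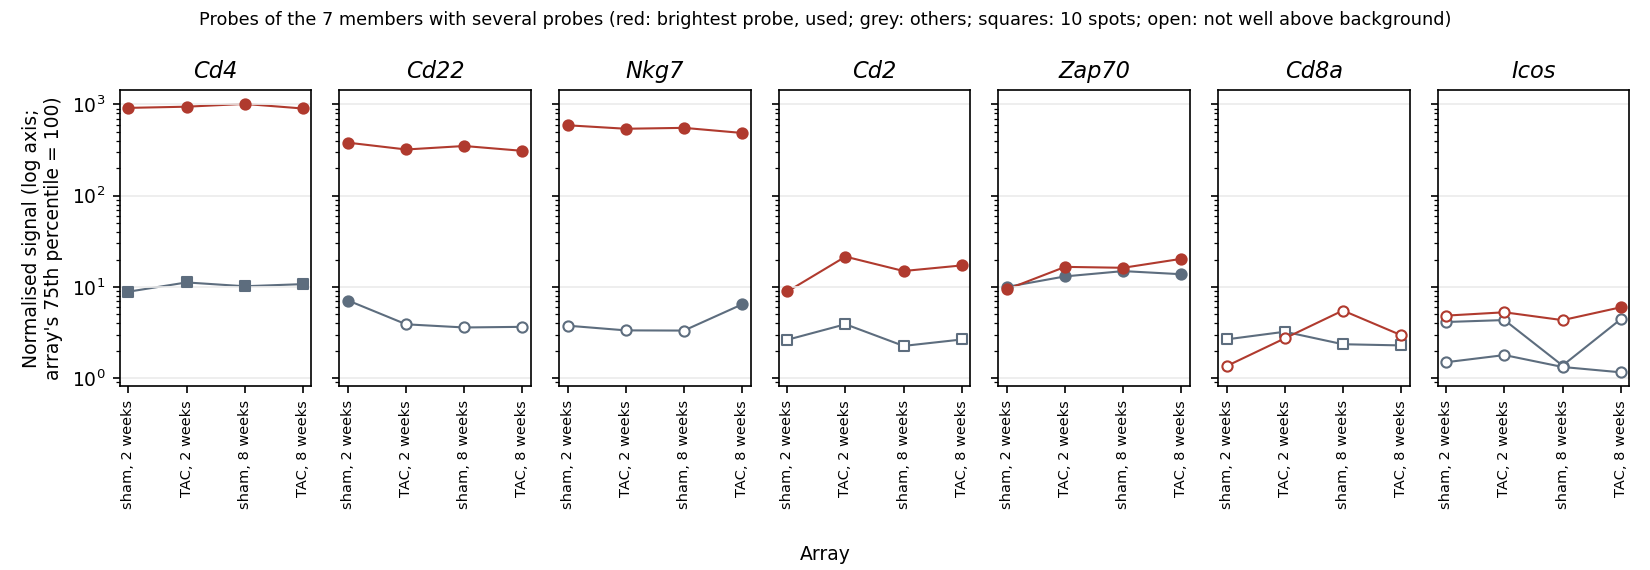
Normalised signal (log axis) of every probe of the 7 members with several probes on the 4 arrays, in red for the brightest probe, which was used, and in grey for the others; squares are probes printed in 10 spots and open symbols are not well above background. The probes of Zap70 lie close in signal, while those of Cd4, Cd22 and Nkg7 lie far apart.

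Other genes of the same pathways were read from lists drawn up by function. Of 22 genes of T cell receptor signalling, 10 were measured on all arrays, and their median log2 change was 0.36 at 2 weeks and 0.06 at 8 weeks. Vav1, an exchange factor, had log2 changes of 0.88 and 0.62, and Fyb, an adaptor, of 0.72 and 0.50.

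Of 13 lymphocyte transcription factors, 8 were measured on all arrays, with medians of -0.08 and -0.03. Ikzf1 (Ikaros), measured on the TAC array at 2 weeks with 20.6 against 4.0 in sham hearts, rose at least 3.43-fold there, and read 6.65 and 6.39 at 8 weeks. Bcl11b, needed for T cell identity, was 14.5 and 9.66 at 2 weeks and fell from 18.1 in sham to 7.82 in TAC hearts at 8 weeks (log2 change -1.21). Lef1 had log2 changes of -0.15 and -0.54, Ets1 of 0.32 and 0.03 and Satb1 of 0.14 and 0.38.

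Of 17 further B cell genes, 10 were measured on all arrays, with medians of 0.29 and 0.35 and none called after TAC. Cd72 had log2 changes of 0.77 and 0.54, Syk, a kinase that macrophages also use, of 0.44 and 0.67, and Vpreb3 of 0.34 and 0.55. Between the sham arrays, Spib was called lower at 8 weeks, with 10.9 at 2 weeks and 5.46, not above background, at 8 weeks. Its fold was at least 2.00, right at the limit, and 0.54% of all named genes were called lower there.

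Of 20 NK receptor and effector genes, 9 were measured on all arrays, with medians of 0.07 and -0.13. The chemokine gene Ccl5 gave 70.0 and 93.2 at 2 weeks and rose from 54.5 in sham to 119 in TAC hearts at 8 weeks, 2.18-fold. Gzmm, which encodes granzyme M, was lower by log2 changes of -0.45 and -0.88, opposite in sign to Gzma, and was not called. Ctsw had log2 changes of 0.24 and 0.40 and Tyrobp, a signalling adaptor also of macrophages, of 0.47 and 0.41. The receptor genes Klrb1c, Klre1 and Klrc1 were not above background on any array, like Ncr1, Klrd1 and Klrk1. Other receptor genes of the list were measured. Klra8 was above background on all 4 arrays, with log2 changes of 0.01 and -0.18. Cd244 was too, with -0.10 and -0.13, and Klra4 and Klra7 were above background on 1 array each.

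Of 19 cytokine and receptor genes, 18 had a probe and 6 were measured on all arrays, with medians of -0.13 and -0.25. Il2ra, the alpha chain of the interleukin-2 receptor, gave 44.9 and 32.3 at 2 weeks and fell from 29.2 in sham to 14 in TAC hearts at 8 weeks (log2 change -1.06). Il15, a growth factor of NK and memory T cells, had log2 changes of -0.82 and -0.97, the latter just short of the call. Ltb (lymphotoxin beta) was higher by 0.78 and 0.58, and Il2rg by 0.38 and 0.26. Of 15 costimulatory and inhibitory genes, 7 were measured on all arrays, with medians of -0.01 and 0.01 and none called. Cd86 (0.63 and 1.0) and Cd40 (0.56 and 0.90), carried by antigen-presenting cells, had positive log2 changes, and Cd80 (-0.10 and -0.20) and Cd274 (-0.55 and -0.14) negative ones.

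Of 20 homing genes, 18 had a probe and 14 were measured on all arrays, with medians of 0.05 and 0.33. Cxcl10, a ligand of Cxcr3, was level at 2 weeks, at 30.2 on each array, and rose from 16.6 in sham to 41.2 in TAC hearts at 8 weeks, 2.48-fold. For Cxcl10 the sham arrays themselves differed by a log2 value of -0.86 (8 over 2 weeks). Itgb7, an integrin chain of gut-homing lymphocytes, gave 18.1 and 38.4 at 2 weeks, a 2.13-fold rise, and 23.7 and 39.0 at 8 weeks. Cxcr4 had log2 changes of 0.58 and 0.75 and Cxcr6 of 0.47 and 0.62.

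**Figure D4:**
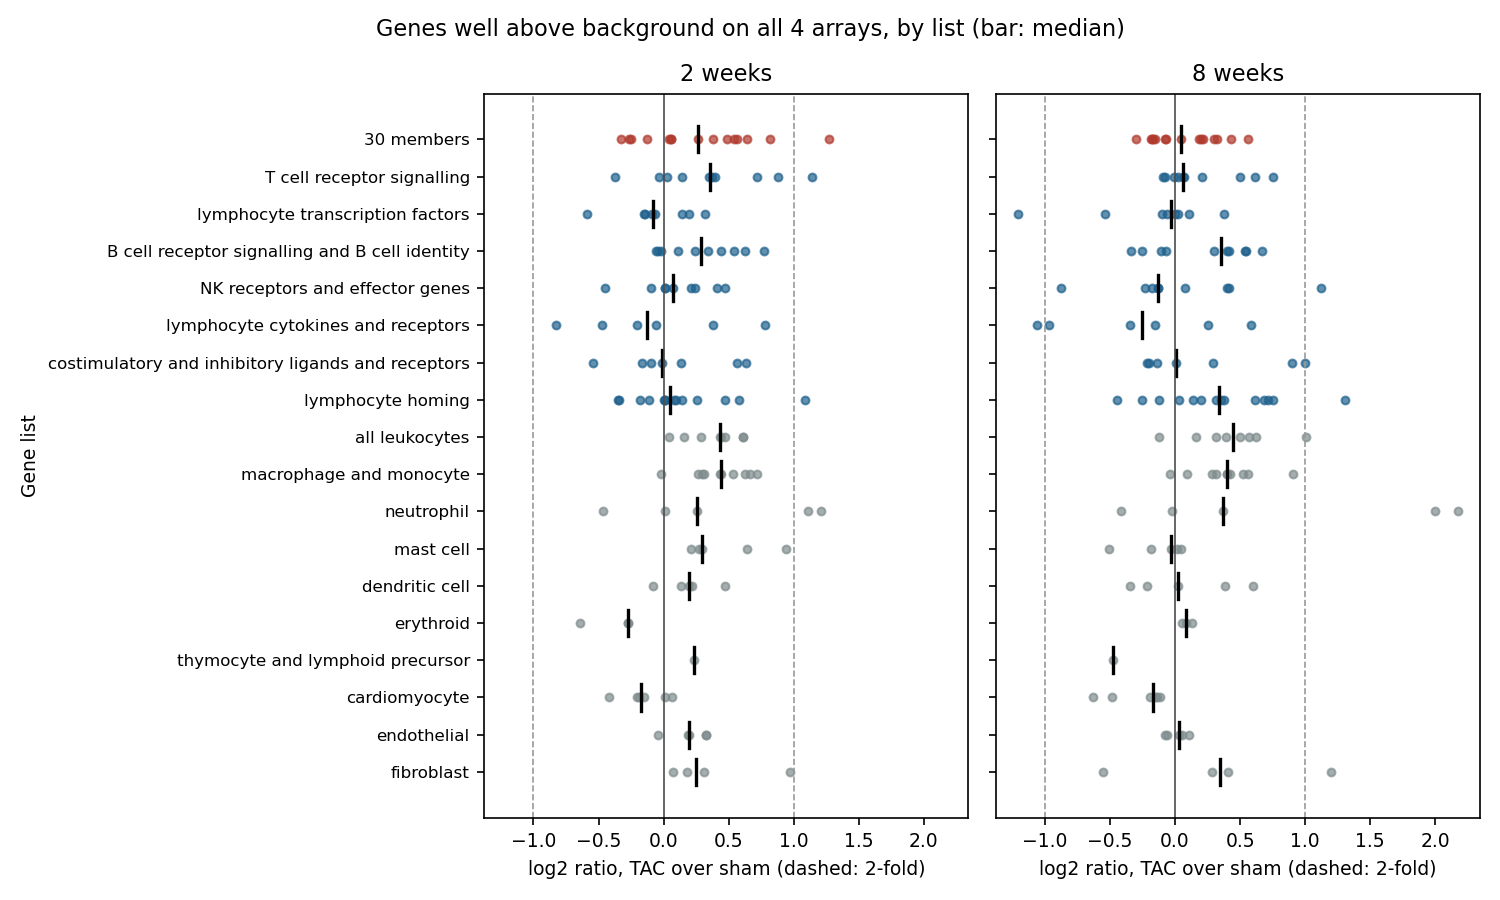
Log2 ratio of TAC over sham at 2 weeks (left) and 8 weeks (right) for the genes of each list measured on all 4 arrays, 1 point per gene, with a bar at the median of the list and dashed lines at 2-fold. The 30 lymphocyte genes (15 measured) have medians of 0.27 and 0.05, and the macrophage list has medians of 0.44 and 0.40.

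Lists of other leukocyte genes differed in their medians. Of 9 genes that all leukocytes share, 8 were measured on all arrays, with median log2 changes of 0.44 and 0.45. Their summed normalised signal was 935 in sham and 1270 in TAC hearts at 2 weeks, and 941 and 1417 at 8 weeks. Ptprc, the common leukocyte antigen CD45, gave 13.6 and 18.4 at 2 weeks, and 10.2 and 12.7 at 8 weeks. All 10 macrophage and monocyte genes were measured on all arrays, and 9 of 10 were higher after TAC at both times, with medians of 0.44 and 0.40 and none called. The macrophage medians were above those of the lymphocyte members at both times, and the difference was not tested. Of 8 neutrophil genes, 5 were measured on all arrays, with medians of 0.26 and 0.37. S100a8 and S100a9 rose over 2-fold at both times and Retnlg at 8 weeks, while Camp had log2 changes of -0.46 and -0.42 and Elane of 0.01 and -0.02. The part that these cells have in the members' signals was not tested.

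For the remaining cell types, the medians at 2 and 8 weeks were 0.29 and -0.03 for mast cell genes (5 of 6 measured on all arrays), 0.20 and 0.02 for dendritic cell genes (5 of 8), -0.28 and 0.08 for erythroid genes (3 of 7) and 0.19 and 0.03 for endothelial genes (5 of 5). For cardiomyocyte genes (6 of 6) they were -0.17 and -0.17, and for fibroblast genes (4 of 4) 0.25 and 0.34. Of the fibroblast genes at 8 weeks, Col1a1 rose 2.30-fold, while 1 was lower, with a log2 change of -0.55. Of 5 thymocyte and precursor genes, Rag1, Rag2, Ptcra and Aire were not above background on any array, and Dntt was measured on all 4, with log2 changes of 0.23 and -0.48.

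Whether the calls depended on the background correction at these low signals could not be decided. With normexp correction of the spot signal, run with an offset of 50, no member was called at either time. The log2 changes became 0.41 for Cd2 and 0.29 for Ms4a1 at 2 weeks, and 0.15 for Cxcr3 at 8 weeks. Before scaling, the sham and TAC signals at 2 weeks were 18.5 and 44.3 for Cd2 and 14.2 and 31.2 for Ms4a1. For Cxcr3 at 8 weeks they were 12.4 and 31.1. Adding an offset larger than both signals by itself brings such ratios below 2-fold. Without scaling between arrays, the small log2 changes at 8 weeks turned from negative to 0.10 for Cd28, 0.09 for Prf1, 0.01 for Cd3e and 0.00 for Cd4.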

How the data were processed

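Total RNA pools of sham and TAC hearts were labelled with Cy3 and hybridized to 4 Agilent SurePrint G3 Mouse arrays, whose probes were designed on mm9. The authors deposited scanner output of Agilent Feature Extraction 10.7.3.1 per the file headers (9.1 per the labels). Its processed signal is the intensity of a spot after background subtraction and detrending, without scaling between arrays. A further deposited table repeats these intensity values on a linear scale, multiplied by 4.26 and 4.35 for sham and TAC at 2 weeks and by 4.0 and 3.52 at 8 weeks. All 4 arrays lay on the same slide and scan.

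Here spots marked as outliers were left out, spots of the same probe were averaged as log2 values, and signals were divided by the 75th percentile over 55681 probes other than controls and multiplied by 100. A probe with several spots counted as well above background where over 0.5 of its spots were. Of these probes, 29358 were named through transcript accessions (RefSeq annotation of GRCm38.p6, GENCODE), giving 21658 genes, with the probe of highest mean signal per gene. Of the 198 listed genes beside the members, 5 had no matched probe. A gene was called where it was well above background on the brighter array and over 2-fold apart, with the bound described in the text. With 1 array per condition no significance test was run. The members and lists were chosen with earlier results of these data known. From each pathway list, at most 4 genes measured on all arrays with the largest mean log2 change in either direction were named. Ikzf1, Spib, Klra8, Cd244, Klra4 and Klra7, and the genes named from the cell type lists, were added after their values were seen. Some genes that this rule selects are not reported here. Alternatives were other scalings, normexp (offset 50, limma 3.58.1 in R 4.3.3), the deposited table, outlier spots kept, the mean over probes, plain ratios, another flag, thresholds of 1.5 and 3 and, after the data were seen, the dimmest probe and a median without the 4 members above 300. The script that makes the calls was tested on simulated data with known folds. These folds were beyond the limit and in genes well above background on all arrays. Changes in dim genes or near 2-fold were not covered. Python 3.11.15, numpy 2.4.6, pandas 2.3.3, scipy 1.17.1 and matplotlib 3.10.9 were used.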

Additional observations from a re-analysis of the deposited data

How the results depend on the processing

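No paired analysis was possible because each condition is 1 array and the labels carry no replicate numbers. For the same reason no array could be left out. Members called higher after TAC at 2 weeks, 2 as reported (0.877% of all genes), numbered 0 with normexp (0.263%), 1 with the mean over probes (0.78%), 1 with the dimmest probe (0.743%), 3 with plain ratios (Cd3d added; 1.74%), 6 with the positive and significant flag (3.62%), and 5 (3.61%) and 0 (0.268%) with thresholds of 1.5-fold and 3-fold. At 8 weeks, 1 as reported (1.77%), they numbered 0 with normexp (0.633%), 3 with that flag (3.45%), and 2 (4.54%) and 0 (0.665%) with the 1.5-fold and 3-fold thresholds. The normexp counts do not test the reported calls, because its offset exceeded the unscaled signals of the called members. Members called lower at 8 weeks, 0 as reported (1.06%), numbered 1 with the flag (Ctla4; 4.01%) and 1 with 1.5-fold (Cd8b1; 3.81%). Between the sham arrays, 0 as reported (0.577%), 1 was called higher with plain ratios (Cd8b1; 1.17%), 3 with the flag (3.21%) and 3 with 1.5-fold (1.99%). No alternative called a member lower at 2 weeks or between the sham arrays. The cause was not tested. The other scalings, the deposited table and kept outlier spots left all counts of called members as reported. The median of the measured members ran from 0.16 (normexp) to 0.49 at 2 weeks and from -0.04 (normexp) to 0.21 at 8 weeks, and was 0.49 and 0.20 without the 4 members above 300. Without scaling, the median of all genes was 0.16 at 8 weeks and 0.12 between the sham arrays. Of 306 log2 changes of single members under the alternatives, 277 stayed within the SD between spots, 29 moved by more and 15 changed sign. Some of the 277 could not move. The positive and significant flag does not alter signals, and members with a single probe keep it under the mean over probes and the dimmest probe. All 15 changes of sign were at 8 weeks (for Cd2, Cd22, Cd28, Cd3e, Cd4, Cd5, Ms4a1, Nkg7, Prf1 and Zap70) and none was of a called change. Signals near background limit 15 of the 30 genes.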
